A study of Mus musculus with 4 samples.

Results

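Aquaporins are membrane channels for water, and some also carry glycerol and other small uncharged solutes. The 9 aquaporin genes described here were Aqp1, Aqp3, Aqp4, Aqp5, Aqp7, Aqp8, Aqp9, Aqp11 and Aqp12. They were followed with all 13 of their probes, out of 22328 genes with a RefSeq symbol and 55681 probes on the array. The family was chosen because Aqp12 and Aqp3 were among the largest differences between arrays, so the values below describe the members and test nothing. RNA came from pancreatic islets of 24-week-old C57BL/6 mice, hybridised to 4 one-colour Agilent arrays with 1 array per group. The groups were transgenic males studied 6 weeks after an implant of E2, that is estradiol (male Tg E2), transgenic females (female Tg), transgenic males described as diabetic in the labels (male Tg) and wild-type males (male WT). The transgene, its promoter and the number of mice behind each array are not given in the sources used here. Islets had been freed with collagenase given through the bile duct, separated on density gradients and picked by hand. Each difference is therefore one between 2 single arrays, with no replicate and no p-value. Its error is the scanner software's own standard error (SE), which comes from that software's error model and does not cover the spread between mice. For bright probes this SE is close to 0.20 log2 whatever the gene. Repeated spots of a probe within an array had a median SD of 0.06 to 0.07 log2.

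Aquaporins assemble as tetramers in which every subunit has its own pore. In the exocrine pancreas, acinar cells secrete digestive enzymes in a small volume of fluid and duct cells add bicarbonate-rich fluid, and water follows the salt in part through aquaporins. Aqp12 is an intracellular member made in pancreatic acinar cells, Aqp8 lies in the apical membrane of acinar cells in rodents, and Aqp5 lies in the apical membrane of secretory epithelia. Aqp1 is the water channel of capillary endothelium and red cells, and Aqp4 is best known from the end feet of astrocytes. Aqp3, Aqp7 and Aqp9 are aquaglyceroporins: Aqp3 is found in basolateral membranes of epithelia, Aqp7 releases glycerol from adipocytes and is present in beta cells of rodents, and Aqp9 takes up glycerol in hepatocytes. Aqp11 is an intracellular member whose loss causes polycystic kidneys in mice.

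The probes of Aqp12 and Aqp8 are shown first because these 2 genes had the widest ranges over the 4 arrays. The Aqp12 probe lies on mm9 at chr1:94908593-94908652, plus strand. Aqp8 has 2 probes on the plus strand of chromosome 7, and the one printed is that nearer to the start of the transcript, at chr7:130606210-130606269 and transcript position 290. The other lies at chr7:130611453-130611512 and transcript position 1421. No mm9 annotation was used here, so exon and untranslated region were not assigned.
Aqp12 probe: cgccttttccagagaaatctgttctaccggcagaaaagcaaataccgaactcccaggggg
Aqp8 probe at transcript position 290: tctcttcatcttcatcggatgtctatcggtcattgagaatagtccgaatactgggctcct

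The upstream sequences of the same 2 genes are given because both are known from acinar cells and had their highest level on the male Tg array, as did Aqp1, Aqp3, Aqp5 and Aqp7. They are the 250 bases before the annotated start in RefSeq, build GRCm38.p6, at chr1:93006084-93006333 for Aqp12 and chr7:123462044-123462293 for Aqp8, both on the plus strand. Capitals mark E-boxes (CANNTG) and TC-boxes (TTTCCC, or GGGAAA on the other strand), the 2 elements bound by PTF1, the transcription factor complex of acinar cells.
Aqp12 upstream: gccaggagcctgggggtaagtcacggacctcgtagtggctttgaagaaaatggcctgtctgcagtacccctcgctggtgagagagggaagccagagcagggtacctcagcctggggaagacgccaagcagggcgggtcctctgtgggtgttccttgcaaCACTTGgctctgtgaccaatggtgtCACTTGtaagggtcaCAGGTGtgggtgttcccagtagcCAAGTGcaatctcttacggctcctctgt
Aqp8 upstream: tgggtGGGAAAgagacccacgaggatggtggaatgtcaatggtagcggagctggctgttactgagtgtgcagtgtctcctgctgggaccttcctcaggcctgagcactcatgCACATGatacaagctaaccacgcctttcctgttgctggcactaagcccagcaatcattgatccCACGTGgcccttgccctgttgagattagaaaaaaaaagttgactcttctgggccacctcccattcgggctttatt
The Aqp12 stretch holds 4 E-boxes, 91, 66, 51 and 28 bases before the start, and no TC-box. The Aqp8 stretch holds 2 E-boxes, 138 and 75 bases before the start, and 1 TC-box 245 bases before it. Both elements are also found in this window at Aqp1, with 1 E-box and 1 TC-box, and at 1 of the 2 annotated starts of Aqp9, with 3 E-boxes and 1 TC-box, although Aqp9 was not well above background on any array. Among 32851 mouse promoters of this length, 66.2% hold an E-box, 3.84% hold at least 4, 21.9% hold a TC-box and 14.2% hold both. The half-site of the estrogen receptor (AGGTCA, or TGACCT on the other strand) is in neither stretch, nor in those of Aqp1, Aqp3, Aqp5 and Aqp9. It is in those of Aqp7 and Aqp11, and in 14.0% of all promoters. These matches describe letters in the window and are not binding sites.

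A level is the log2 of the background-corrected Cy3 intensity minus the 75th percentile of that array's non-control probes, so 0 stands for the intensity of that percentile. Levels compare 1 probe across arrays and do not rank genes against each other. Between 49.9% and 54.8% of spots were well above background, which is the software's own call, and 13888 genes were so on all 4 arrays. All 10 beta cell markers and all 6 markers of alpha, delta and PP cells were well above background on every array, as were all 28 acinar markers. The array-to-array correlation of log2 levels was lowest for male Tg with male WT (r = 0.90) and highest for male Tg E2 with female Tg (0.968). Arrays are bulk RNA, in which a change in the number of cells of a type and a change in RNA per cell cannot be told apart.

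Of the 9 aquaporin genes, 6 were well above background on all 4 arrays: Aqp1, Aqp3, Aqp4, Aqp8, Aqp11 and Aqp12. Aqp7 was so on 3 arrays (all but female Tg), Aqp5 on 2 (male Tg E2 and male Tg), and Aqp9 on none. The other 3 genes of the family on the array, Mip, Aqp2 and Aqp6, were well above background on 0 of the 4 arrays. Aqp5 lies between Aqp2 and Aqp6 on chromosome 15, so only the middle gene of this row gave a signal above background. Among the 6 genes measured on every array, the ratio of the highest to the lowest array was 67.8-fold for Aqp12, 33.7-fold for Aqp8, 11.9-fold for Aqp3, 6.67-fold for Aqp4, 6.42-fold for Aqp1 and 1.74-fold for Aqp11. A range of 4-fold or more was seen in 9.71% of the 13888 genes.

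**Figure D1:**
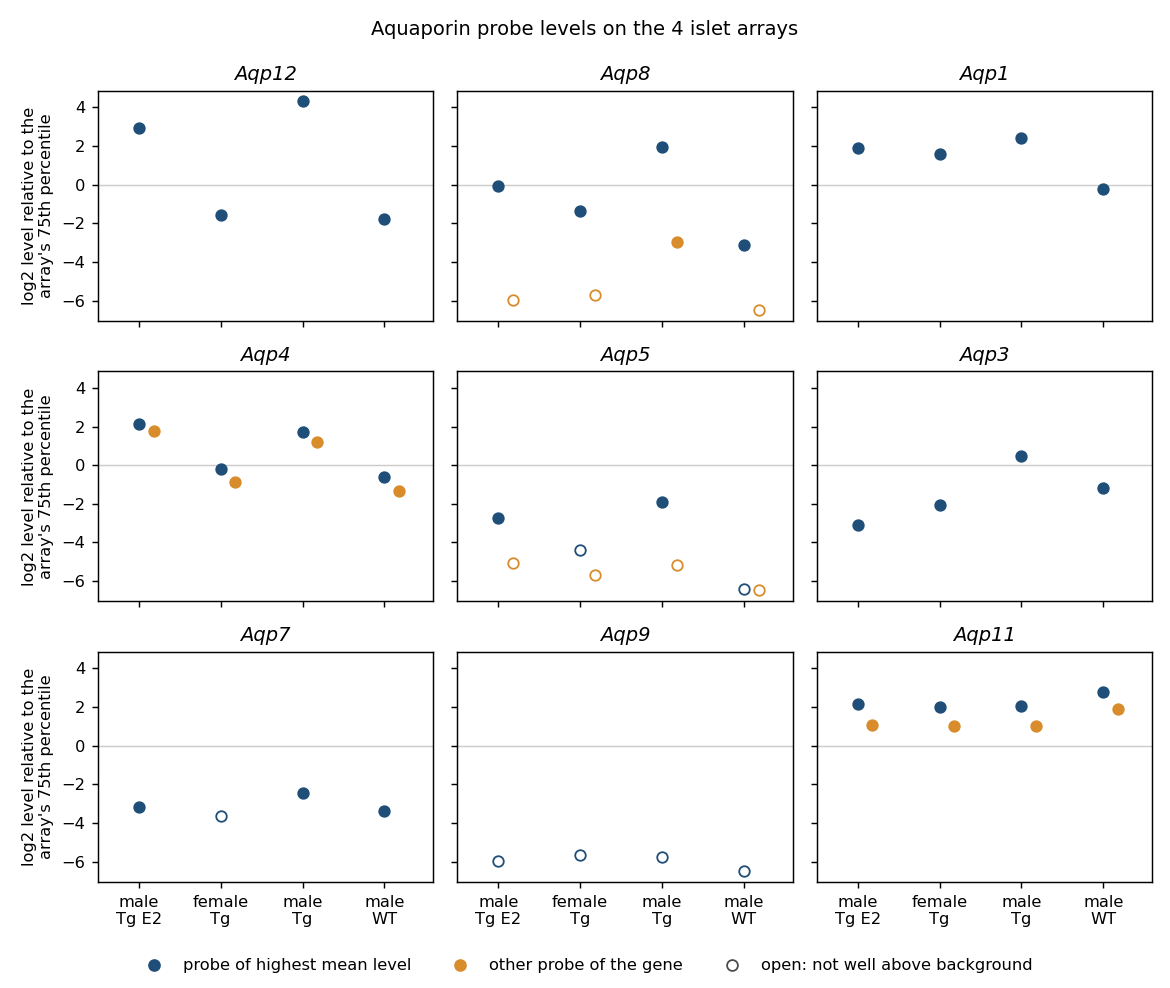
Level of each of the 13 aquaporin probes (log2 intensity minus the array's 75th percentile) on the 4 single arrays, with 1 point per array and open points where the probe was not well above background. Aqp12 and Aqp8 are highest on male Tg, Aqp11 is highest on male WT, and the Aqp9 points are all open.

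The male Tg array was compared with the male WT array first. Of the 7 aquaporin genes measured on both, 5 were higher in male Tg by 2-fold or more (Aqp12, Aqp8, Aqp1, Aqp4 and Aqp3), 0 were lower by as much, and Aqp7 and Aqp11 lay between. Aqp5 was above background on male Tg alone, and Aqp9 on neither array. Of the 14382 genes measured on both arrays, 15.6% were higher in male Tg by that margin, 8.68% were lower and 24.3% passed in either direction. The family was picked on this contrast, so nothing is read from its count against these shares. The median difference of the measured members was 2.35, against -0.21 over all genes. Scaling by each array's median in place of the 75th percentile moved the median of all genes to -0.54 and the share of higher genes among those called to 37.5%, against 64.3% here. Both Aqp11 probes were lower in male Tg, and with median scaling Aqp11 passed the 2-fold line, at -1.05.

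In male Tg E2 against male Tg, 8 members were measured, of which 0 were higher by 2-fold or more and 3 were lower by that margin (Aqp3, Aqp8 and Aqp12). Among 14616 genes, 2.55% were at least 2-fold higher, 8.0% lower and 10.6% either. This contrast too was part of the choice of the family, and nothing is read from the shares. The members' median difference was -0.81, against 0.12 over all genes. With median scaling, 38.2% of called genes were higher, against 24.1% here.

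In female Tg against male Tg, 6 members were measured, with 0 higher by 2-fold or more and 4 lower by that margin (Aqp12, Aqp8, Aqp3 and Aqp4). Aqp5 and Aqp7 were above background on male Tg alone. Among 14207 genes, 3.51% were at least 2-fold higher, 8.57% lower and 12.1% either. The family was chosen for large differences on these same arrays, so nothing is read from the shares here either. The median difference was -2.25 over the measured members and 0.10 over all genes. With median scaling, 43.6% of called genes were higher, against 29.1% here. The comparison with male Tg E2 and this one share the male Tg array, and so does the first, so the 3 sets of differences are not independent of each other.

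Set against male WT, the other 2 transgenic arrays differed from each other in how many members stood apart. In male Tg E2 against male WT, 4 of 7 measured members were at least 2-fold higher (Aqp12, Aqp8, Aqp4 and Aqp1) and 1 was lower (Aqp3), where 8.82% of 14584 genes were higher, 2.64% lower and 11.5% either. In female Tg against male WT, 2 of 6 were higher (Aqp1 and Aqp8) and 0 lower, where 7.63% of 14215 genes were higher, 3.47% lower and 11.1% either. Aqp1 and Aqp8 were thus above male WT by 2-fold or more on each of the 3 transgenic arrays. These counts too come from the arrays on which the family was chosen, and nothing is read from the shares.

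**Figure D2:**
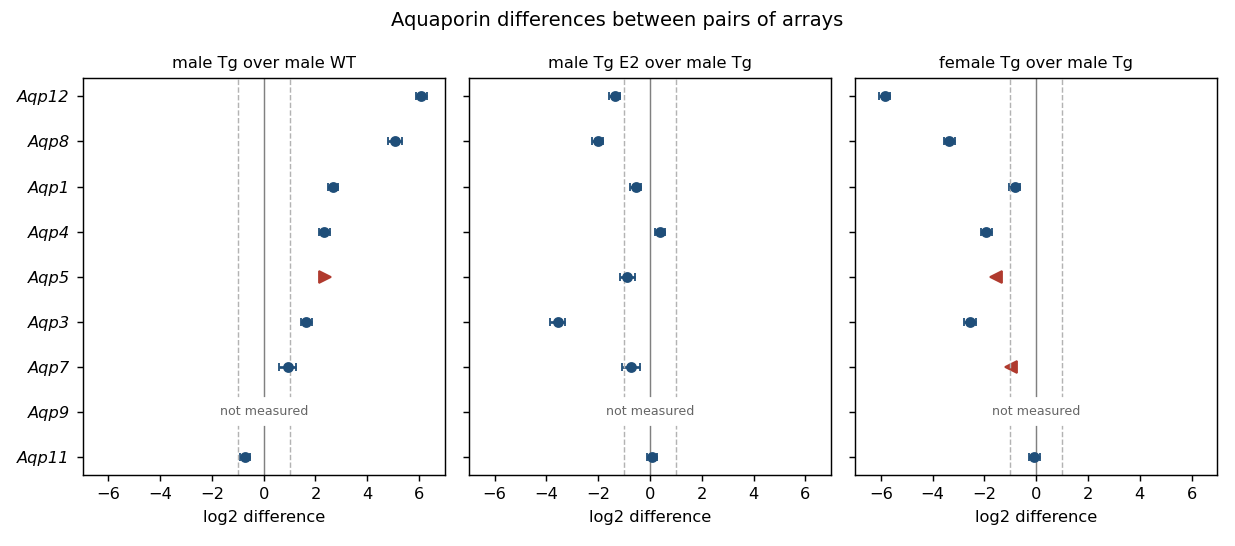
Log2 differences of the aquaporin genes in the 3 comparisons that use the male Tg array, with bars for the scanner software's SE, dashed lines at 2-fold and red triangles for "at least" values of genes above background on male Tg alone. Aqp12 and Aqp8 lie furthest right for male Tg over male WT, Aqp3 lies furthest left for male Tg E2 over male Tg, while Aqp11 stays between the dashed lines in each.

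Aqp12, the intracellular acinar aquaporin, had the widest range of the family. Its level was 2.95 on male Tg E2, -1.55 on female Tg, 4.31 on male Tg and -1.77 on male WT, which are intensities of 2312, 89.3, 4025 and 107.04. Male Tg and male Tg E2 were high, and female Tg and male WT were low and close together. The difference was 6.08 ± 0.21 (SE) in male Tg over male WT, which is 67.8-fold and rank 12 among the genes higher in male Tg. It was -5.86 ± 0.22 in female Tg over male Tg, 58.2-fold lower, and -1.36 ± 0.20 in male Tg E2 over male Tg, 2.57-fold lower. Male Tg E2, though below male Tg, was 26.3-fold above male WT (4.72 ± 0.21). Female Tg and male WT differed by 0.22 ± 0.23, less than the error of that difference. With normexp background correction the 3 largest of these differences were smaller, at 5.23, -4.90 and 4.0. That setting adds an offset of 50 to every signal, which by itself draws differences of dim probes towards 0.

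Aqp8, the apical channel of acinar cells, had the second widest range. The probe at transcript position 1421 read -0.04 on male Tg E2, -1.38 on female Tg, 1.98 on male Tg and -3.10 on male WT. All 3 transgenic arrays were above male WT, with male Tg highest. Male Tg exceeded male WT by 5.08 ± 0.26, which is 33.7-fold, or by 3.72 with normexp. Male Tg E2 was 4.06-fold below male Tg (-2.02 ± 0.21) and female Tg was 10.2-fold below it (-3.36 ± 0.22, or -2.70 with normexp). In contrast to Aqp12, female Tg also stood above male WT, by 1.72 ± 0.27 or 3.29-fold. With normexp that difference was 1.02. The probe at position 290, printed above, was dim: -2.98 on male Tg and not well above background on the other arrays. It gave male Tg at least 2.44-fold above male WT and male Tg E2 at least 1.70-fold below male Tg, where "at least" sets the signal against the background floor of the dim array.

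Aqp5, the channel of secretory epithelia, was seen on the arrays of transgenic males only. The probe at transcript position 1428 read -2.76 on male Tg E2 and -1.89 on male Tg, and was not well above background on female Tg or male WT. Male Tg was at least 5.20-fold above male WT and female Tg at least 2.93-fold below male Tg. Male Tg E2 differed from male Tg by -0.87 ± 0.28, and stood at least 2.84-fold above male WT. The probe at position 945 was not well above background on any array, so the Aqp5 values rest on 1 of its 2 probes.

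Acinar markers differed between the same arrays as these members. The list holds digestive enzymes and acinar regulators, all 28 of which on the array were well above background everywhere, and its summed level was 14388 on male Tg E2, 2576 on female Tg, 23372 on male Tg and 2349 on male WT, in multiples of the 75th percentile. In male Tg over male WT, 26 of 28 were at least 2-fold higher and 0 lower, with a median of 4.39 and Cuzd1 the highest at 6.27. Among all genes 15.6% were higher and 8.68% lower there. The acinar medians were -0.69 in male Tg E2 over male Tg (0 higher, 6 lower) and -3.94 in female Tg over male Tg (0 higher, 26 lower). Of all genes, 2.55% were higher and 8.0% lower in the former, and 3.51% and 8.57% in the latter. With quantile normalization the 3 medians were nearer to 0, at 3.76, -0.24 and -3.24. Aqp12 was exceeded by 3 of the 28 in male Tg over male WT, and 3 of the 28 were further below male Tg than it in female Tg. Aqp8 was exceeded by 5 in male Tg over male WT. In male Tg E2 over male Tg the Aqp8 value of -2.02 lay below all 28, whose lowest was Rbpjl at -1.97, closer than the SE of 0.21. In female Tg over male WT the 28 acinar genes ran from -0.18 to 0.66, and Aqp8 at 1.72 lay above all of them.

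Ductal markers differed less evenly. Of 10 on the array, 8 were measured in male Tg over male WT, with a median of 2.54. Of these, 5 were higher and 1 lower, where 15.6% of all genes were higher and 8.68% lower. The summed ductal level was 146 on male Tg E2, 16.6 on female Tg, 267 on male Tg and 18.9 on male WT. Among the defining duct genes Sox9 and Muc1 were not well above background on female Tg or male WT, and Cftr was not on female Tg or male Tg E2. Tff2, a secreted trefoil peptide, was higher in male Tg by 5.86, and Krt19, a duct keratin, by 3.21. The part of acinar and ductal RNA in the Aqp12, Aqp8 and Aqp5 values was not tested.

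**Figure D3:**
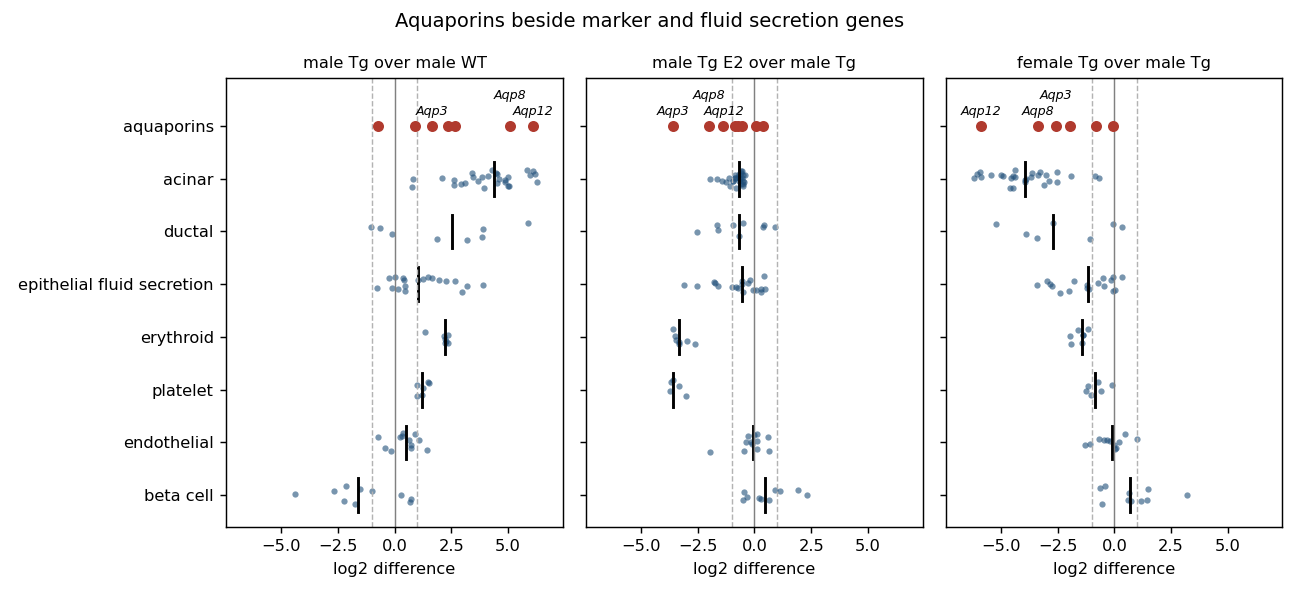
Log2 differences of the measured aquaporins (red) and of each gene of 7 lists (blue), with the list median as a black bar and dashed lines at 2-fold, in the 3 comparisons that use the male Tg array. Aqp12 and Aqp8 lie within or at the edge of the acinar points, whose medians are 4.39, -0.69 and -3.94, and Aqp3 lies beside the erythroid and platelet points for male Tg E2 over male Tg.

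Aqp1, the endothelial and red cell water channel, was low on 1 array only. Its level was 1.89 on male Tg E2, 1.61 on female Tg, 2.44 on male Tg and -0.24 on male WT. The 3 transgenic arrays stood above male WT by 4.37-fold (2.13 ± 0.21) for male Tg E2, 3.61-fold (1.85 ± 0.21) for female Tg and 6.42-fold (2.68 ± 0.21) for male Tg. Among the transgenic arrays the differences stayed under 2-fold, at -0.55 ± 0.20 between male Tg E2 and male Tg, and at -0.83 ± 0.20 between female Tg and male Tg. The 12 endothelial markers, all well above background on every array, had medians of 0.50 in male Tg over male WT, 0.27 in male Tg E2 over male WT and 0.33 in female Tg over male WT. Their summed level was 107.3 on male Tg E2, 106 on female Tg, 122 on male Tg and 92.8 on male WT. Aqp1 lay above all 12 in each of these 3 comparisons, the highest endothelial value being that of Vwf at 1.44 in male Tg over male WT. The 7 measured red cell genes ran from 1.32 to 2.36 in male Tg over male WT, beside Aqp1 at 2.68, and from -1.30 to -0.81 in male Tg E2 over male WT, where Aqp1 was 2.13. The part of endothelial and red cells in the Aqp1 values was not tested.

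Aqp4, the astrocyte water channel, was the 1 measured member with its highest level on male Tg E2. The probe at transcript position 1561 read 2.12 on male Tg E2, -0.21 on female Tg, 1.73 on male Tg and -0.62 on male WT. As for Aqp12, the arrays of transgenic males were high and those of female Tg and male WT low. Male Tg exceeded male WT by 2.35 ± 0.21, which is 5.08-fold, and male Tg E2 exceeded it by 2.74 ± 0.21, which is 6.67-fold. Female Tg was 3.82-fold below male Tg (-1.93 ± 0.21). Male Tg E2 over male Tg was 0.39 ± 0.20, and the second probe, at position 4974, gave 0.58 there and 2.52 in male Tg over male WT. All 28 acinar genes were below Aqp4 in male Tg E2 over male Tg, their highest value being -0.44. Of 5 glial and Schwann markers, Gfap was not well above background on male WT, and the list's summed level was 4.30 on male Tg E2, 3.93 on female Tg, 5.39 on male Tg and 2.72 on male WT. Of the 4 measured in male Tg over male WT, 1 was at least 2-fold higher, where 15.6% of all genes were. The other 3 lay between, and the median of the 4 was 0.69. The higher one was S100b, a glial calcium-binding protein, at 2.33. In male Tg E2 over male Tg the 5 glial and Schwann genes ran from -0.79 to -0.08, where Aqp4 was 0.39. The part of these cells in the Aqp4 values was not tested.

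Aqp3, the epithelial aquaglyceroporin, had the largest difference of any member between male Tg E2 and male Tg. Its level was -3.08 on male Tg E2, -2.07 on female Tg, 0.49 on male Tg and -1.16 on male WT. It was highest on male Tg and, unlike Aqp12, Aqp8 and Aqp4, lower on male Tg E2 than on male WT. Male Tg E2 was 11.9-fold below male Tg (-3.57 ± 0.30), rank 7 among the genes lower in male Tg E2. Male Tg was 3.13-fold above male WT (1.65 ± 0.21), and female Tg was 5.89-fold below male Tg (-2.56 ± 0.24). Male Tg E2 was 3.80-fold below male WT (-1.93 ± 0.30). The male Tg E2 signal, an intensity of 35.3, is dim and below the offset of 50 that normexp adds. With normexp, male Tg E2 over male Tg was -2.20 and male Tg E2 over male WT was -0.97, under 2-fold. Female Tg over male Tg was -1.72 with normexp. Female Tg over male WT was -0.91 ± 0.24, and it passed 2-fold with median scaling (-1.10), quantile normalization (-1.01) and the deposited value table (-1.02).

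Red cell and platelet markers differed in the same direction as Aqp3 in the 3 comparisons with male Tg. This direction was not particular to blood cells, as the medians of the acinar and ductal lists, among others, had the same signs. The ductal medians were 2.54, -0.68 and -2.72, and in male Tg E2 over male Tg Aqp3 lay below all 9 measured ductal genes. Of 9 erythroid genes on the array, 7 were measured. All 7 were at least 2-fold higher in male Tg over male WT (median 2.23), where 15.6% of all genes were higher. All 7 were lower by that margin in male Tg E2 over male Tg (median -3.32) and in female Tg over male Tg (median -1.45). Of all genes, 8.0% were lower in the former and 8.57% in the latter. The summed erythroid level was 186 on male Tg E2, 550 on female Tg, 1611 on male Tg and 351 on male WT. Epb42, a protein of the red cell membrane skeleton, was well above background on female Tg alone. Platelet genes had medians of 1.23 in male Tg over male WT, -3.57 in male Tg E2 over male Tg, of 5 measured, and -0.87 in female Tg over male Tg, with summed levels of 8.11 on male Tg E2, 46.9 on female Tg, 90.6 on male Tg and 39.2 on male WT. In female Tg over male WT, Aqp3 at -0.91 lay below all 7 erythroid genes (from -0.04 to 1.20) and all 6 platelet genes (from 0.06 to 1.38). The part of blood cells in the Aqp3 values was not tested.

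Aqp7, the glycerol channel of adipocytes and beta cells, was dim and varied little. Its level was -3.18 on male Tg E2, -2.44 on male Tg and -3.36 on male WT, and it was not well above background on female Tg. Male Tg over male WT was 0.92 ± 0.32 and male Tg E2 over male Tg -0.74 ± 0.35, both under 2-fold, and female Tg was at least 1.99-fold below male Tg. Aqp7 and Aqp3 are neighbours on chromosome 4, and both were highest on male Tg, as were Aqp1, Aqp5, Aqp8 and Aqp12. Between male Tg E2 and male Tg, Aqp7 differed by -0.74 and Aqp3 by -3.57. Of 6 adipocyte markers, Adipoq, which encodes adiponectin, Plin1 and Retn were well above background on male Tg alone and Lep on no array, and the list's summed level was 7.19 on male Tg E2, 4.32 on female Tg, 18.3 on male Tg and 3.56 on male WT. Their part in the Aqp7 values was not tested. Aqp9, the hepatocyte member, was not well above background on any array and gives no difference.

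Aqp11, the intracellular member outside the exocrine group, was the steadiest. The probe at transcript position 1262 read 2.16 on male Tg E2, 2.0 on female Tg, 2.07 on male Tg and 2.79 on male WT. Male WT was the highest array, and the 3 transgenic arrays lay close together below it. Male Tg E2 differed from male WT by -0.63 ± 0.20, female Tg by -0.80 ± 0.20 and male Tg by -0.72 ± 0.20. The probe at position 935 gave -0.80, -0.87 and -0.86 in the same comparisons. Male Tg E2 over male Tg was 0.08 ± 0.20, and female Tg over male Tg was -0.08 ± 0.20, where the sign turned with median scaling (0.07). The 10 beta cell markers had a median of -1.62 in male Tg over male WT and ran from -4.39 to 0.73. Of the 10, 6 were at least 2-fold lower and 0 higher, where 8.68% of all genes were lower and 15.6% higher. In this comparison 7 of the 10 were below Aqp11. The summed beta cell level was nevertheless highest on male Tg, at 3351, with 2612 on male Tg E2, 2482.5 on female Tg and 2645 on male WT.

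The genes whose profiles over the 4 arrays were most like each member were found by Euclidean distance between log2 profiles centred on their own mean, among 13887 other genes measured on all arrays. For Aqp12 the nearest were Ctrc (distance 0.20), Pnliprp2 (0.25), Pdia2 (0.27), Cuzd1 (0.33) and Serpini2 (0.35). Ctrc, Pnliprp2 and Cuzd1 are in the acinar list, and Ctrc is a chymotrypsin and Pnliprp2 a lipase of pancreatic juice. Ctrc had levels of 5.22 on male Tg E2, 0.82 on female Tg, 6.85 on male Tg and 0.67 on male WT. Aqp8 was number 77 in this order and Aqp4 number 165.

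For Aqp8 the nearest genes were further away: Sostdc1 (0.72), Fgf21 (0.75), Gast (0.76), Smoc2 (0.87) and Igfbp6 (0.89). Sostdc1 is a secreted antagonist of bone morphogenetic proteins, Fgf21 a metabolic hormone and Gast encodes gastrin. None of these 5 is on the acinar list. Fgf21 had levels of -0.83 on male Tg E2, -2.47 on female Tg, 1.92 on male Tg and -3.67 on male WT, so female Tg exceeded male WT for it as for Aqp8.

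For Aqp1 the nearest were C1s1 (0.06), Dcaf12l2 (0.09), Slc45a1 (0.12), Ngfr (0.12) and Clec4a1 (0.14). C1s1 encodes a complement protease and Ngfr the low-affinity neurotrophin receptor, and none of the 5 is on the endothelial list. For Aqp4 they were Cbr2 (0.09), Prodh (0.22), Retreg1 (0.28), Angptl4 (0.37) and Egln3 (0.43). Angptl4 encodes an inhibitor of lipoprotein lipase and Egln3 a prolyl hydroxylase of the hypoxia response. For Aqp3 they were Nrgn (0.75), Fabp2 (0.81), Unc93a2 (0.88), Hba-a1 (0.89) and Gzmb (0.89). Hba-a1 encodes an alpha globin and Fabp2 a fatty acid binding protein of the gut. Nrgn, the nearest, had levels of -1.21 on male Tg E2, 0.20 on female Tg, 1.76 on male Tg and 0.35 on male WT. Hba-a1 had levels of 4.96 on male Tg E2, 6.30 on female Tg, 8.27 on male Tg and 6.01 on male WT.

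**Figure D4:**
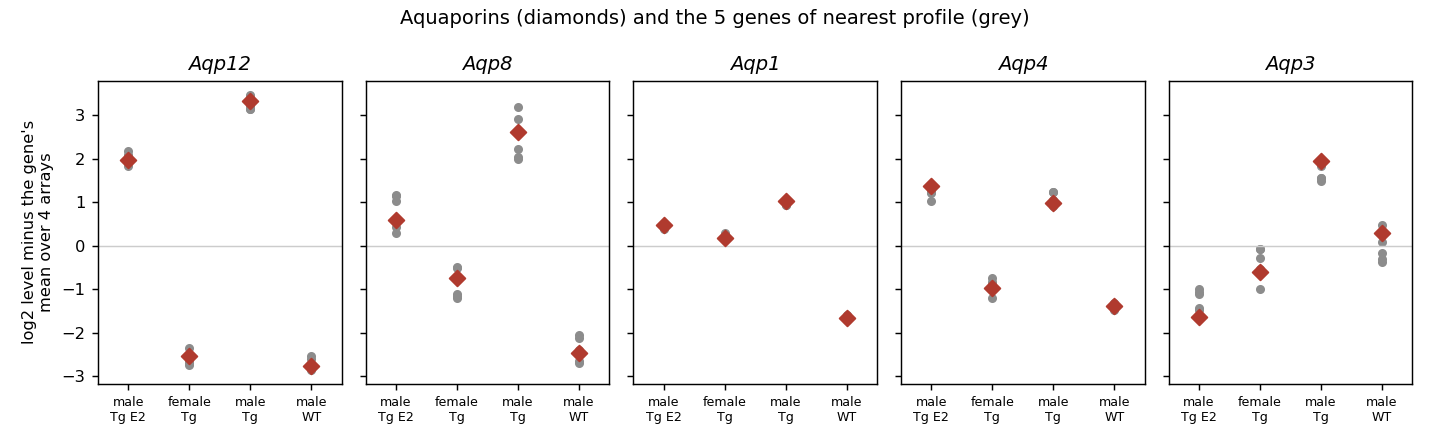
Centred log2 levels on the 4 arrays of Aqp12, Aqp8, Aqp1, Aqp4 and Aqp3 (red diamonds), each with its 5 nearest genes (grey points). The grey points lie almost on the diamonds of Aqp12, Aqp1 and Aqp4 (nearest distances 0.20, 0.06 and 0.09) and further from those of Aqp8 and Aqp3 (0.72 and 0.75).

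Genes of epithelial fluid secretion were counted beside the aquaporins. They are mostly ion transporters and channels that set the salt gradient water follows, with carbonic anhydrases, receptors and regulators. Of 20 genes, 19 were measured in male Tg over male WT, with 10 at least 2-fold higher, 0 lower and a median of 1.05, where 15.6% of all genes were higher and 8.68% lower. Car2, a carbonic anhydrase, was higher by 3.89, the sodium-proton exchanger Slc9a3 by 3.18, the potassium channel Kcnq1 by 2.96 and the anion exchanger Slc26a6 by 2.66. Cftr, the chloride channel of duct cells, differed by -0.09 ± 0.36. In male Tg E2 over male Tg 0 of 19 were higher and 5 lower (median -0.54), where 2.55% of all genes were higher and 8.0% lower, led by Slc9a3 at -3.08, Car2 at -2.53, Slc26a3, a chloride-bicarbonate exchanger, at -1.80 and Slc26a6 at -1.73. In female Tg over male Tg 0 of 18 were higher and 10 lower (median -1.17), where 3.51% of all genes were higher and 8.57% lower, led by Car2 at -3.40 and Slc26a6 at -2.95. Car2 and Cftr are also on the ductal list.

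Genes of glycerol handling, which make, esterify or release glycerol, are set against the same shares of all genes. In male Tg over male WT 4 of 13 were at least 2-fold higher and 0 lower (median 0.57): Gpd1l by 1.64, glycerol kinase Gk by 1.5, Dgat1 by 1.40 and glycerol-3-phosphate dehydrogenase Gpd1 by 1.36. In male Tg E2 over male Tg 0 of 12 were higher and 2 lower, Gk at -1.77 ± 0.29 and Dgat1, which completes triglyceride synthesis, at -1.69. In female Tg over male Tg 0 of 12 were higher and 5 lower (median -0.68), led by Dgat2 at -2.68. Gk and the aquaglyceroporins Aqp3 and Aqp7 each had their highest level on male Tg, but so did Aqp1, Aqp5, Aqp8 and Aqp12.

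Genes of cell volume control and the osmotic response showed no common direction, and their shares were close to the 15.6% higher and 8.68% lower of all genes in male Tg over male WT. In male Tg over male WT 3 of 17 were at least 2-fold higher and 1 lower (median -0.28): Lrrc8b and Lrrc8c, subunits of the volume-regulated anion channel, by 2.11 and 1.79, the osmosensitive channel Trpv4 by 1.87, and the potassium-chloride cotransporter Slc12a7 lower at -2.19. In male Tg E2 over male Tg 0 of 17 were higher and 1 lower, Lrrc8b at -1.29. Among all genes 2.55% were higher and 8.0% lower there. In female Tg over male Tg 1 of 17 was higher, Slc12a7 at 1.38, and 2 lower, the kinase Sgk1 at -1.34 and Lrrc8b at -1.06. The shares of all genes were 3.51% higher and 8.57% lower in that comparison.

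**Figure D5:**
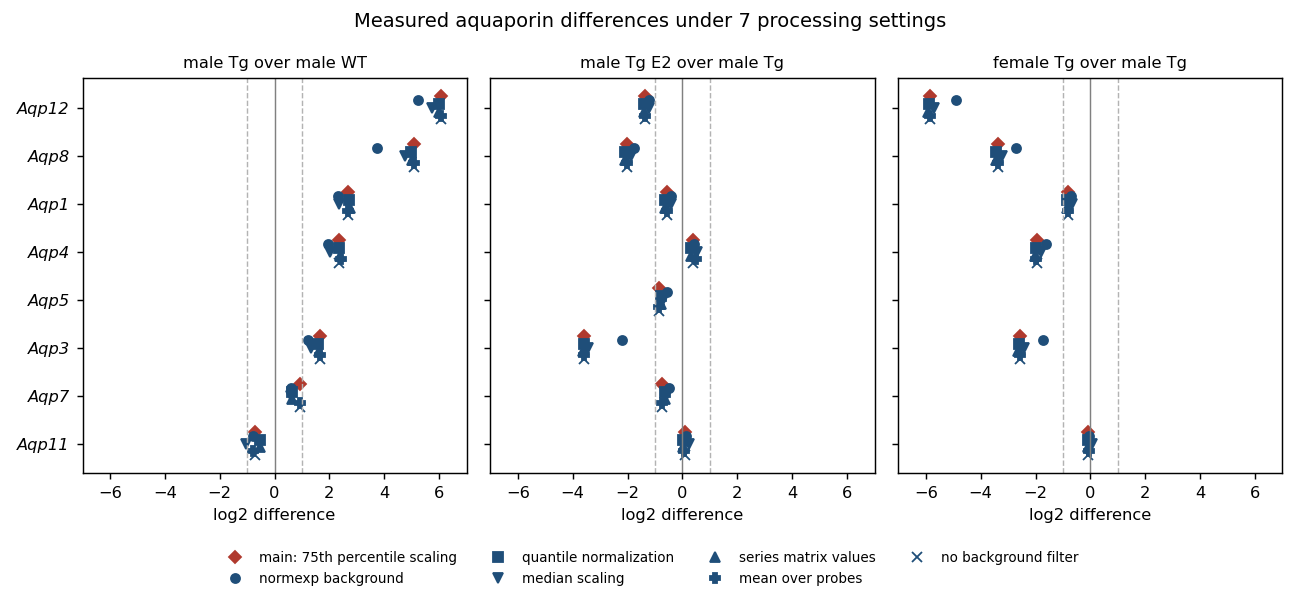
Log2 differences of the measured aquaporins under each of the 7 processing settings (1 mark per setting, the series matrix values being those of the deposited table) in the 3 comparisons with male Tg. The marks of Aqp12, Aqp8 and Aqp3 stay on 1 side of 0 and beyond the dashed 2-fold lines, and the widest spreads are those of Aqp8 in male Tg over male WT, from 3.72 to 5.08, and Aqp3 in male Tg E2 over male Tg, from -3.61 to -2.20.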

How the data were processed

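The scanner files of the 4 arrays, of total RNA from islets of 4 groups, were analysed. Per the file headers, the deposited values are background-corrected Cy3 intensity on a linear scale from Feature Extraction 10.7.1.1, with probes placed on mm9, whereas the submitters' processing notes name version 9.5.1.1. The deposited value table holds the same intensity after quantile normalization, as the values themselves show, and served as an alternative. All arrays shared 1 slide and 1 scan time.

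Spots with an outlier flag were left out, spots of a probe were averaged, and log2 intensity minus the 75th percentile of non-control probes was used. A difference was measured where the probe was well above background on both arrays, and each gene was given by the probe of highest mean level over the arrays. A gene was called at 2-fold or more. With 1 array per group no test was made, and the number of arrays limits the precision. By accession 27235 probes were named and by symbol or synonym 4146, through RefSeq GRCm38.p6, and 24300 had no RefSeq symbol.

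Named genes are the 9 members, the 5 nearest profiles to each member with a 4-fold range on all arrays, and from each list up to 4 genes with the biggest differences of at least 2-fold, of which some are left out here. Members and lists were chosen with earlier results of these data known. Alternatives were normexp (offset 50) on the mean and background signals, quantile normalization, median scaling, the deposited table, no background filter and the mean over probes. Steps were tested on simulated data. Tools were Python 3.11.15, numpy 2.4.6, pandas 2.3.3, matplotlib 3.10.9, R 4.3.3 and limma 3.58.1.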

Additional observations from a re-analysis of the deposited data

How the results depend on the processing

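No paired analysis was possible because each group has 1 array and the labels give no shared replicate numbers, and for the same reason no replicate could be left out. Over the 7 settings, 20 of the 21 member differences in the 3 comparisons with male Tg kept their sign, the exception being Aqp11 in female Tg over male Tg (-0.08 to 0.07). The count of members at least 2-fold lower in female Tg over male WT was 0 and became 1 (Aqp3) with median scaling, quantile normalization and the deposited table. In male Tg over male WT it was 0 and became 1 (Aqp11) with median scaling, and in male Tg E2 over male WT it was 1 and became 0 with normexp. Without the background filter, which adds dim probes, 6 members in place of 5 were higher in male Tg over male WT. In male Tg E2 over male WT 5 in place of 4 were higher. In female Tg over male WT 3 in place of 2 were higher, and in female Tg over male Tg 6 in place of 4 were lower. The shares over all genes rose as well in these comparisons. Higher genes were 19.6% against 15.6% in male Tg over male WT, and 12.1% against 8.82% in male Tg E2 over male WT. They were 10.9% against 7.63% in female Tg over male WT. Lower genes were 12.01% against 8.57% in female Tg over male Tg. Of the medians of the marker and pathway lists in the 3 comparisons with male Tg, 44 moved by more than 0.2 log2 under another setting and 190 did not. Over the fluid secretion, glycerol and volume lists together, 1 gene was higher in female Tg over male Tg, and 2 with median scaling, quantile normalization and the deposited table, and 1 was lower in male Tg over male WT, 4 with median scaling and 2 with normexp. The cause was not tested. Among all genes, those lower in male Tg over male WT were 8.68%, and 20.4% with median scaling. Normexp, whose offset draws dim differences towards 0, called fewer genes in each comparison, for example 1.40% against 2.55% higher in male Tg E2 over male Tg. With median scaling the share of higher genes among those called was 61.3% in male Tg E2 over male WT, against 77.0%, and 51.0% in female Tg over male WT, against 68.8%. Dim probes limit Aqp3, Aqp5, Aqp7 and the Aqp8 probe at position 290, and Aqp9 could not be measured. The Aqp8 probe at position 1421 was dim on male WT, with an intensity of 42.6, which limits its differences from that array.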
